A study of Homo sapiens with 4 samples.

Results

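The comparison set the exosome fraction of culture medium against the cells that conditioned it, once at 20% oxygen and once at 1% oxygen, in the long-established human myeloma line RPMI8226, which descends from a cancer of plasma cells. Its members were the 377 human microRNA (miRNA) assays among the 384 wells of a TaqMan Human miRNA Array A card. Of these 377 assays, 138 gave a threshold cycle (Ct) under 35 in all 4 samples and carried the measured comparison, 50 were seen in both exosome samples and in neither cell sample, and 7 in both cell samples and in neither exosome sample. A further 126 were never seen, and 56 were seen in another combination. The 4 samples were cells kept for 24 h at 20% oxygen (normoxia), cells kept for 24 h at 1% oxygen (hypoxia), and the exosome fraction of the medium under each condition. Each group was 1 sample. All 4 came from the same line, and no drug treatment is named in the labels. Per the labels, the exosome fraction was precipitated with a polymer reagent from cleared and filtered medium, which enriches vesicles without separating them from other RNA carriers. Only the exosome reverse transcription products were pre-amplified, so compartment and pre-amplification cannot be told apart in any value below.

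Exosomes are small membrane vesicles released by cells, and their RNA can be taken up by other cells. Mature miRNAs are short RNAs that are cut from a hairpin, loaded into Argonaute proteins and guided to messenger RNAs mainly by their seed, bases 2 to 8. Which miRNAs leave a cell in vesicles is known to depend on abundance, on sequence and on RNA-binding proteins, and myeloma cells release vesicles that act on the bone marrow around them.

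The results below turned on closely related miRNAs whose values parted between the compartments, so their mature sequences are given first. They were taken from RefSeq (GRCh38.p14), are written 5′ to 3′, and carry the seed in capitals. The let-7 members shown were seen in cells only (let-7a, let-7f, miR-98) or in all 4 samples (let-7c, let-7e).
let-7a: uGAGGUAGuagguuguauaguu
let-7f: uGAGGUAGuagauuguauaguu
miR-98: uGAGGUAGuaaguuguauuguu
let-7c: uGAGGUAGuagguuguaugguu
let-7e: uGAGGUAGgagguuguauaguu

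The members of each next pair share a seed. In the first pair miR-103 was seen in cells only, in the second miR-23b was, and in the others both members were measured with different values.
miR-103: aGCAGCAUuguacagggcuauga
miR-107: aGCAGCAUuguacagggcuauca
miR-23a: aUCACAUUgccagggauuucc
miR-23b: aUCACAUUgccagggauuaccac
miR-19a: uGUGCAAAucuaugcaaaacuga
miR-19b: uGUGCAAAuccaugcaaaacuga
miR-17: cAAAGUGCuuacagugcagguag
miR-20b: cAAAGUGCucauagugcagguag
miR-454: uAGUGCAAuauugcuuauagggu
miR-130b: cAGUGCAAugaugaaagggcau

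The last sequences are both arms of the miR-142 hairpin, whose values parted most among hairpins, and miR-373, which had the highest exosome-over-cell value.
miR-142-5p: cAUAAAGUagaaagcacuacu
miR-142-3p: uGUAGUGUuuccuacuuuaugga
miR-373: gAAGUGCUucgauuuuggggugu

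The measurement was 1 Ct per assay and sample, the PCR cycle at which fluorescence crossed a threshold; 1 cycle less stands for 2-fold more template at full efficiency. A Ct of 35 was the highest in the table and was read as not detected. A Ct carries no count, so the depth is unknown and no counting interval applies; the precision is limited by 1 well and 1 sample per group. Assays were seen in 162 and 155 of 377 wells in cells and in 221 and 219 wells in the exosome fraction, at 20% and 1% oxygen respectively. The deposited Ct values lay within 0.1 cycle of a whole number in 53.7% to 71.6% of seen wells, against 20% for evenly spread values, so differences are resolved in steps near 1 cycle. The human control RNAs U6, RNU44 and RNU48 were seen in both cell samples and stood at 35 in both exosome samples. U6 averaged 18.82 and 18.81 in the cell samples, with an SD over 4 wells of 0.15 and 0.12. The plant spike-in ath-miR159a, which the labels describe as added to each aliquot, stood at 35 in both cell samples and at 22.94 and 22.99 in the exosome fraction. No control could therefore link the compartments.

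The compartments were instead placed on a common scale by subtracting each sample's median Ct over the 138 shared assays. That median was 30.91 and 30.97 in cells and 23.96 and 23.99 in the exosome fraction, 6.95 and 6.98 cycles earlier. The log2 exosome-over-cell value of an assay is the centred cell Ct minus the centred exosome Ct. It compares a miRNA's standing among the shared miRNAs in each compartment and says nothing of total amounts. A value of 2 or more in either direction, a 4-fold difference, was counted. With 1 sample per group there is no replicate error between the compartments, no test was made and no p-value is given; the oxygen levels serve as separate comparisons that share no sample, although they differ in condition.

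The miRNA profiles of cells and exosome fraction were broadly alike. Among the 138 measured assays and on this scale, departures from that likeness were mostly miRNAs with less in the exosome fraction. These assays had to be under 35 in cells, where the median lay nearer the ceiling. The 50 assays seen only in the exosome fraction and the 7 seen only in cells did not enter these counts. At 20% oxygen, 9 of 138 assays (6.52%) stood 4-fold or more above the cells in the exosome fraction and 25 (18.1%) stood 4-fold or more below. At 1% oxygen 5 (3.62%) were higher and 34 (24.6%) lower. Past 4-fold at both oxygen levels were 4 assays that were higher (2.9%) and 23 that were lower (16.7%), while 92 stayed within 4-fold at both. The median of the values themselves was not 0, at -0.44 at 20% and -0.83 at 1% oxygen, because centring the columns does not centre the differences. The split of 4 higher to 23 lower moved with the centring: it was 9 to 16 with mean centring, 10 to 14 with the median over assays under Ct 32, and 7 to 20 with the median difference set to 0. Those settings raised every value by 0.79, 0.87 and 0.64 on the log2 scale, averaged over oxygen levels. Under 6 scalings of the 138 assays, the one used here included, 14 miRNAs were lower and 3 were higher in all of them. The lower calls lost under at least 1 scaling were let-7d, let-7g, miR-19a, miR-26a, miR-29a, miR-126, miR-140-3p, miR-323-3p and miR-483-5p. Among the higher calls, miR-92a was lost in this way.

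**Figure D1:**
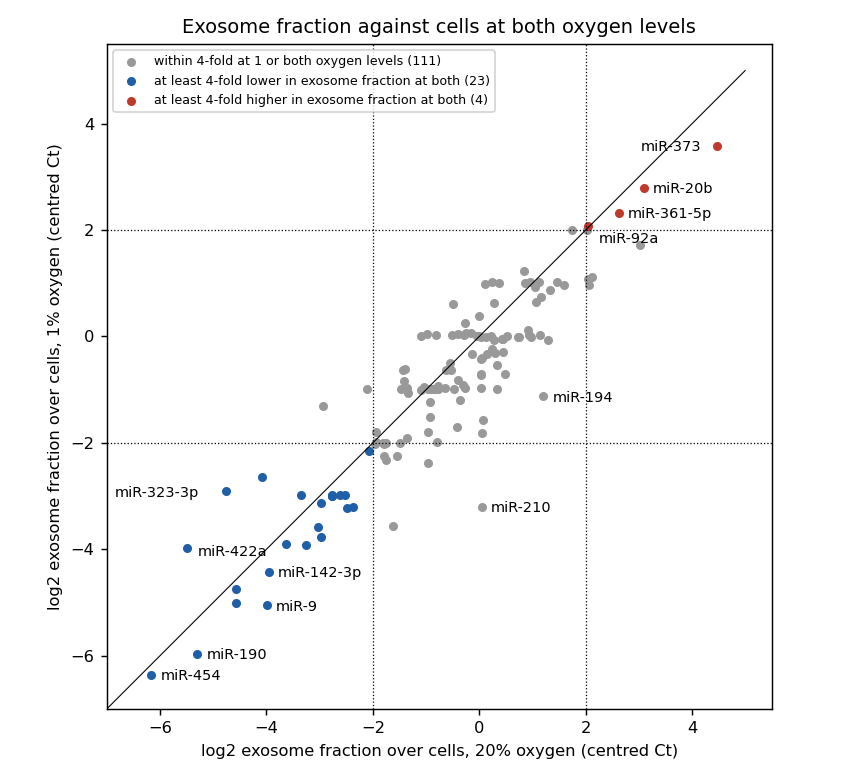
Each point is 1 of the 138 assays under Ct 35 in all 4 samples, with its log2 exosome-over-cell value at 20% oxygen on the x axis and at 1% oxygen on the y axis; dotted lines mark 4-fold and the solid line marks equal values. The 23 assays that were at least 4-fold lower at both levels lie at the lower left and the 4 that were higher at the upper right, while miR-210 lies far below the line of equal values.

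The order of the miRNAs was largely shared. Over the 138 assays, Ct in cells and Ct in the exosome fraction correlated at 0.87 (Pearson) and 0.86 (Spearman) at either oxygen level, as a description across assays that share a card and a sample and are not independent. Cell Ct itself had little relation to the exosome-over-cell value, with Pearson correlations of 0.08 and 0.05. Of the 20 assays with the lowest Ct, 14 were shared by cells and exosome fraction at 20% oxygen and 15 at 1%, against 18 shared by both cell samples and 19 by both exosome samples. The values at 20% and 1% oxygen correlated at 0.91 (Pearson) and 0.86 (Spearman), and 113 of 138 assays (81.9%) differed by less than 2-fold between them; the assays share their primers, and both comparisons share the pre-amplification.

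Among the miRNAs lower in the exosome fraction, miR-454 stood farthest out. Its Ct was 26.73 and 26.94 in cells and 25.94 and 26.31 in the exosome fraction, so that it gained under 1 cycle where the median assay gained about 7. The log2 value was -6.16 at 20% and -6.36 at 1% oxygen, or 71.7-fold and 82.1-fold lower. miR-454 has the seed of the miR-130 and miR-301 miRNAs. Those relatives did not share its value: miR-301a stood at -1.34 and -1.07, miR-301b at 0.05 and -1.82, and miR-130b at 3.03 and 1.72. From miR-454 to miR-130b, assays with the same seed in the sequences above spanned more than any other seed group with at least 3 measured members. miR-130a, the other relative on the card, was seen only in the exosome fraction, at Ct 31.96 and 29.83.

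The group held 2 of the 7 measured members of the blood and lymphoid marker list, against 16.7% of all 138 assays. miR-142-3p, which is made in nearly all blood cells, had a Ct of 24.95 and 24.97 in cells and 21.95 and 22.41 in the exosome fraction, and was 15.5-fold and 21.4-fold lower (log2 -3.95 and -4.42). miR-155, a driver of B-cell activation and of B-cell cancers, had a Ct of 31.67 and 30.97 in cells and 27.98 and 27.90 in the exosome fraction, and was 9.59-fold and 15.1-fold lower. All 4 samples gave a Ct for both miRNAs, and exosome wells crossed the threshold earlier by under 4 cycles, against about 7 for the median assay. The other 5 measured members of the 8 blood and lymphoid markers stayed within 2-fold at both levels. They were miR-142-5p, miR-146a, miR-146b-5p, miR-150 and miR-223, and their values ran from -0.99 to 0.34. miR-150 and miR-223 lay just inside 2-fold at 1% oxygen, both at -0.99. The medians of the list were -0.29 and -0.99, close to the -0.44 and -0.83 of all assays, and miR-342-3p was seen only in the exosome fraction, at Ct 29.96 and 29.98.

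Of the 10 lowest values, 3 more belonged to miR-9, miR-125a-5p and miR-331-3p. miR-9, a miRNA of the nervous system that also targets the plasma cell regulator PRDM1, had a Ct of 28.94 and 28.87 in cells and 25.99 and 26.94 in the exosome fraction, a log2 value of -3.996 and -5.055. miR-125a-5p, a relative of the worm timing miRNA lin-4, had a Ct of 34.37 and 33.97 in cells and 31.98 and 31.73 in the exosome fraction, at -4.57 and -4.74. Its seed partner miR-125b stood at 0.45 and -0.05. The pair thus parted by over 4 on the log2 scale at either level, although miR-125a-5p was close to the ceiling in cells. miR-331-3p had a Ct of 26.98 and 27.05 in cells and 23.66 and 23.97 in the exosome fraction, at -3.63 and -3.91.

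Both members of the miR-26 family, which restrain the histone methyltransferase EZH2, were lower. miR-26a stood at -2.36 and -3.21 and miR-26b at -2.97 and -3.76, from Ct values of 25.74 to 27.96 in cells and 21.39 to 24.52 in the exosome fraction. miR-26a was within 4-fold at 1 or both levels under 3 of the 6 scalings, and miR-26b was lower in all 6. The miR-29 family, known for targeting collagens and DNA methyltransferases, leaned the same way. miR-29a was at -2.53 and -2.98, miR-29c at -1.95 and -1.79, and miR-29b at -1.36 and -1.91. The medians of the 3 were -1.95 and -1.91, below the medians of all 138 assays.

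The remaining low values came from miRNAs of varied origin. miR-190 was at -5.30 and -5.96, miR-362-5p at -4.58 and -5.01, miR-422a at -5.49 and -3.98, and miR-323-3p, from the imprinted DLK1-DIO3 locus, at -4.75 and -2.91. These 4 had cell Ct values of 31.96 to 34.99, near the ceiling, and they are absent from the set under Ct 32 in all 4 samples. The group also held miR-374a, miR-374b, miR-628-5p, miR-135b, miR-483-5p, miR-126, miR-19a, let-7d, let-7g and miR-140-3p. miR-135b, which earlier work ties to vessel growth under hypoxia, had a Ct of 34.16 and 33.96 in cells and 29.98 and 29.97 in the exosome fraction, at -2.76 and -2.99. miR-140-3p lay just inside the threshold, at -2.08 and -2.16. Outside it but at -1.75 or lower at both levels were miR-200b, miR-574-3p, miR-636, miR-339-3p, miR-101, miR-135a, miR-31 and miR-29c.

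The 4 miRNAs that were higher in the exosome fraction were miR-373, miR-20b, miR-361-5p and miR-92a. miR-373, a miRNA of embryonic stem cells, had a Ct of 32.99 and 32.53 in cells and 21.57 and 21.96 in the exosome fraction. It was 22.2-fold and 12.0-fold higher (log2 4.47 and 3.59). The other members of the embryonic clusters on the card did not give a measured value: miR-372 and miR-302c were seen in 1 exosome sample at Ct 34.96 and 34.95, just under the ceiling, miR-302b in 1 cell sample at 33.52, and miR-302a, miR-367 and miR-371-3p in none. miR-373 was thus the only one of 7 that was seen in all 4 samples.

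miR-20b, from the X-linked relative of the miR-17-92 cluster, had a Ct of 30.96 and 30.74 in cells and 20.91 and 20.96 in the exosome fraction, 8.55-fold and 6.95-fold higher. miR-361-5p had a Ct of 34.57 and 33.99 in cells and 24.99 and 24.67 in the exosome fraction, 6.17-fold and 5.02-fold higher. miR-92a, a member of miR-17-92, had a Ct of 26.97 and 26.98 in cells and 17.97 and 17.93 in the exosome fraction, 4.14-fold and 4.20-fold higher. It lay just inside the threshold and fell within 4-fold under 2 of the scalings. Just outside lay miR-128, at 2.03 and 2.00. Among the 89 assays under Ct 32 in all 4 samples, where the ceiling is far, the 5 highest were miR-20b, miR-92a, miR-25 (1.74 and 2.01), miR-365 (2.04 and 1.09) and miR-148a (1.46 and 1.02).

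The miR-17 family clusters, growth-promoting miRNAs that MYC induces and that many blood cancers express strongly, gave most of the lowest Ct values in either compartment. miR-19b had the lowest Ct of all assays in the exosome fraction (14.34 and 14.96) and in hypoxic cells (20.98), and miR-17, miR-106a and miR-20a followed closely there. Of 13 members on the card, 12 were measured, with medians of -0.03 and -0.53 against -0.44 and -0.83 for all assays. Members within the family parted: miR-20b, miR-92a and miR-25 had high values, and miR-19a was low, at -4.08 and -2.64. miR-17, which differs from miR-20b by U10C and C12U (position 1 is the 5′ end, miR-17's base first), stood at -0.90 and -0.99 against 3.10 and 2.80 for miR-20b. In cells the Ct of miR-20b was about 9 cycles later than that of miR-17, and in the exosome fraction about 5.

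Among lists with at least 3 measured members, 2 had medians above 0 at both levels. The miR-23/27/24 clusters, which act in blood cell and vessel development, had medians of 0.95 and 0.96, and the 4 measured members (miR-23a, miR-24, miR-27a, miR-27b) were all above 0 at both levels. The family of miR-148a, miR-148b and miR-152, which targets DNA methyltransferases, had medians of 1.13 and 1.02 over 3 members, with miR-148b lower than the others, at 0.49 and -0.71. Neither list held a member past 4-fold. The lists with miR-16, miR-125b, miR-222 and miR-181a as the member of lowest Ct had medians from -0.82 to 0.71. In them miR-16 stood at -0.25 and 0.07, miR-222 at 0.45 and -0.30, and miR-181a at 1.13 and 0.02.

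The remaining families lay lower or were mixed. In the miR-30 family miR-30c stood at -0.87 and -0.99 and miR-30b at -1.50 and -2.01. In the family of miR-34a, a target of p53, miR-34a stood at 0.52 and 0.01 and miR-449b at -2.95 and -1.30. The miR-200 family, which keeps epithelial cells in their state, had medians of -1.75 and -0.99, with miR-200a at 0.00 and 0.39 and miR-429 at -2.10 and -0.99. None of these members was past 4-fold at both levels.

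**Figure D2:**
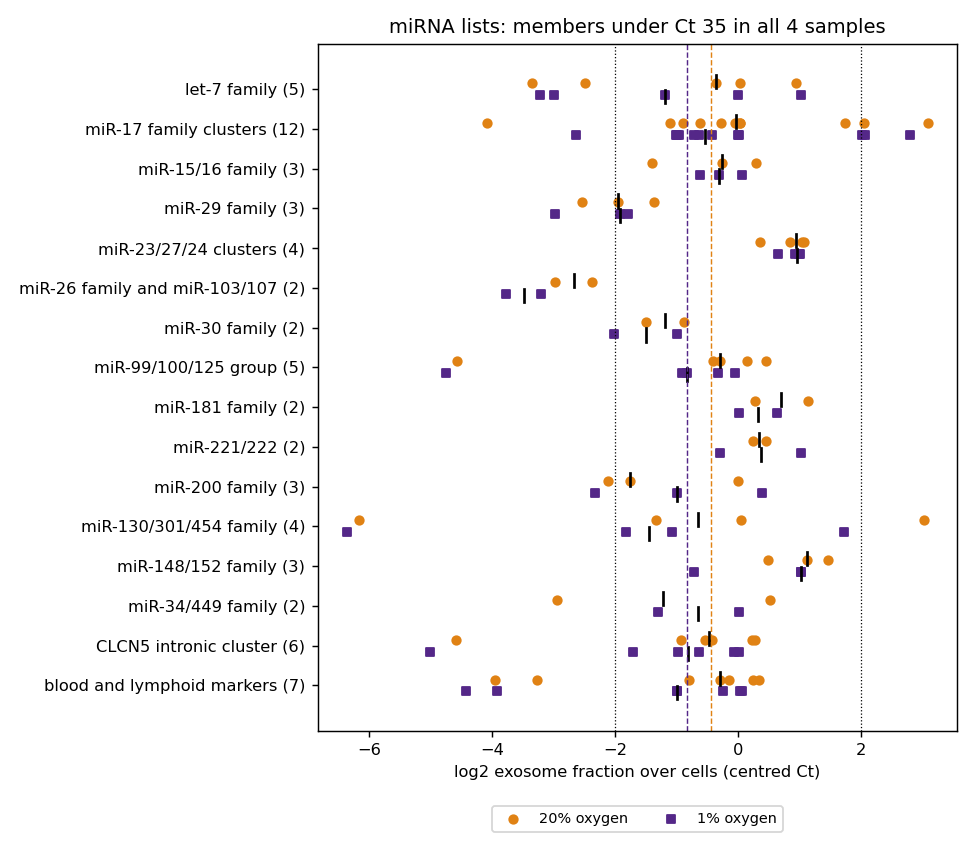
Log2 exosome-over-cell values at 20% oxygen (circles) and 1% oxygen (squares) for the members of each list under Ct 35 in all 4 samples, with the number of members in brackets; black ticks are list medians, dashed lines the medians of all 138 assays and dotted lines 4-fold. The miR-26 members lie below -2, the miR-23/27/24 members above 0, and the members of the miR-454 family span the widest range.

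The arms of a hairpin come from 1 precursor and are measured by separate assays. The cause of a difference between arms was not tested. Both arms of 48 hairpins were on the card, and both arms of 7 were measured in all 4 samples. The 5p arm had the higher exosome-over-cell value at both oxygen levels in 6 of the 7. For miR-142 the 5p arm stood at -0.15 and 0.07 and the 3p arm at -3.95 and -4.42, a gap of 3.80 and 4.49 on the log2 scale. In cells the 3p arm had the lower Ct by about 7 cycles (24.95 against 31.79 at 20% oxygen), and in the exosome fraction by about 3 (21.95 against 24.98). For miR-193a the 5p arm stood at 0.97 and -0.00 and the 3p arm at -1.62 and -3.56. The gap was over 2-fold at both levels for miR-140 (1.31 and 1.17) and miR-324 (1.78 and 1.12) as well. It was smaller at 1 or both levels for miR-339, miR-532 and miR-886, a sequence since removed from the miRNA registry, whose arms changed order between oxygen levels.

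**Figure D3:**
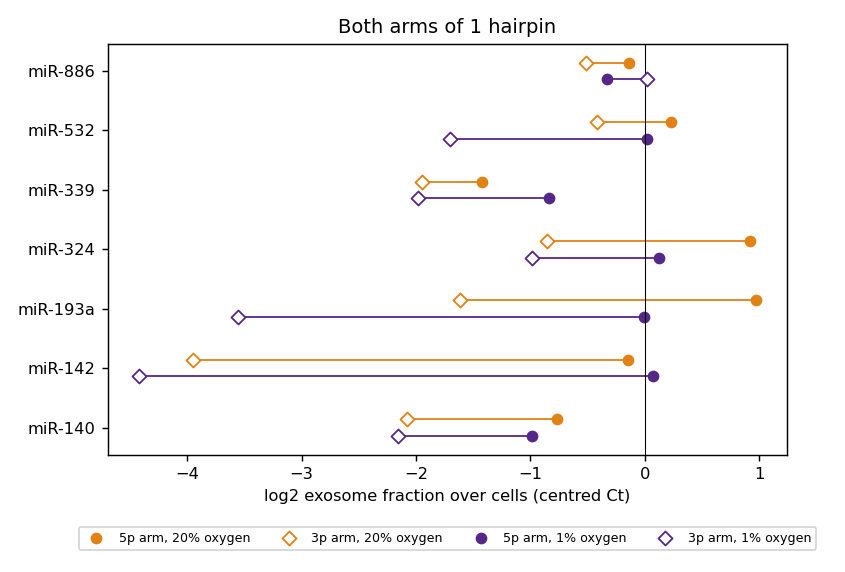
Log2 exosome-over-cell value of the 5p arm (filled circles) and the 3p arm (open diamonds) of the 7 hairpins with both arms under Ct 35 in all 4 samples, at 20% oxygen (orange) and 1% oxygen (purple). The 5p arm lies to the right of the 3p arm in every hairpin and oxygen level except miR-886 at 1% oxygen, and the gap is widest for miR-142.

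The 7 miRNAs seen only in cells (1.86% of 377 assays) were miR-103, let-7a, let-7f, miR-487a, miR-23b, miR-200c and miR-98. miR-103, a regulator of insulin signalling and of Dicer, had a Ct of 29.06 and 28.99 in cells. let-7a, whose family represses RAS, MYC and HMGA2, had 30.76 and 30.97, and let-7f had 31.92 and 31.19. With the exosome wells set at 35, miR-103 was at least 7584-fold lower in the exosome fraction, let-7a at least 2066-fold and let-7f at least 1042-fold, taking the smaller of the bounds at the 2 oxygen levels. The bounds for miR-487a, miR-200c, miR-23b and miR-98 were at least 977-fold, 509-fold, 491-fold and 126-fold. All 7 bounds take the pre-amplification gain of these assays to match that of the median assay, which was not tested. Each bound includes the 6.95 or 6.98 cycles between the compartment medians. Any assay seen only in cells therefore passes the 82.1-fold of miR-454, the largest difference measured among the 138 assays.

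Near relatives of let-7a were seen in the exosome fraction. let-7c differs from let-7a by A19G only (let-7a's base first, positions from the 5′ end), and its Ct was 30.91 and 30.96 in cells, like that of let-7a, but 23.92 and 23.98 in the exosome fraction. let-7e, which differs from let-7a by U9G, had a Ct of 28.96 and 28.77 in cells and 22.37 and 22.98 in the exosome fraction. let-7f differs from let-7a by G12A and shared its absence from the exosome wells. let-7 was therefore not lacking as a family: let-7b stood at 0.95 and 1.02, let-7c at 0.04 and -0.01, and let-7e at -0.36 and -1.19, while let-7d (-3.35 and -2.99) and let-7g (-2.48 and -3.22) were past 4-fold. Both let-7d and let-7g fell within 4-fold at 1 or both levels under 1 or more of the 6 scalings.

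Other pairs varied. miR-23a, which differs from miR-23b by U19A and in length, was measured at 0.36 and 1.00, with a Ct of 22.94 and 22.99 in the exosome fraction. miR-200b, which differs from miR-200c by U11G and A22G and in length, had a Ct of 23.77 and 23.98 there and stood at -1.75 and -2.33. miR-107, which differs from miR-103 by G22C (miR-103's base first), stood at 35 in both exosome samples, as miR-103 did, and was seen only in hypoxic cells, at 33.10. Assays of sequences this close can take up part of each other's product, and how far these assays did so was not tested.

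**Figure D4:**
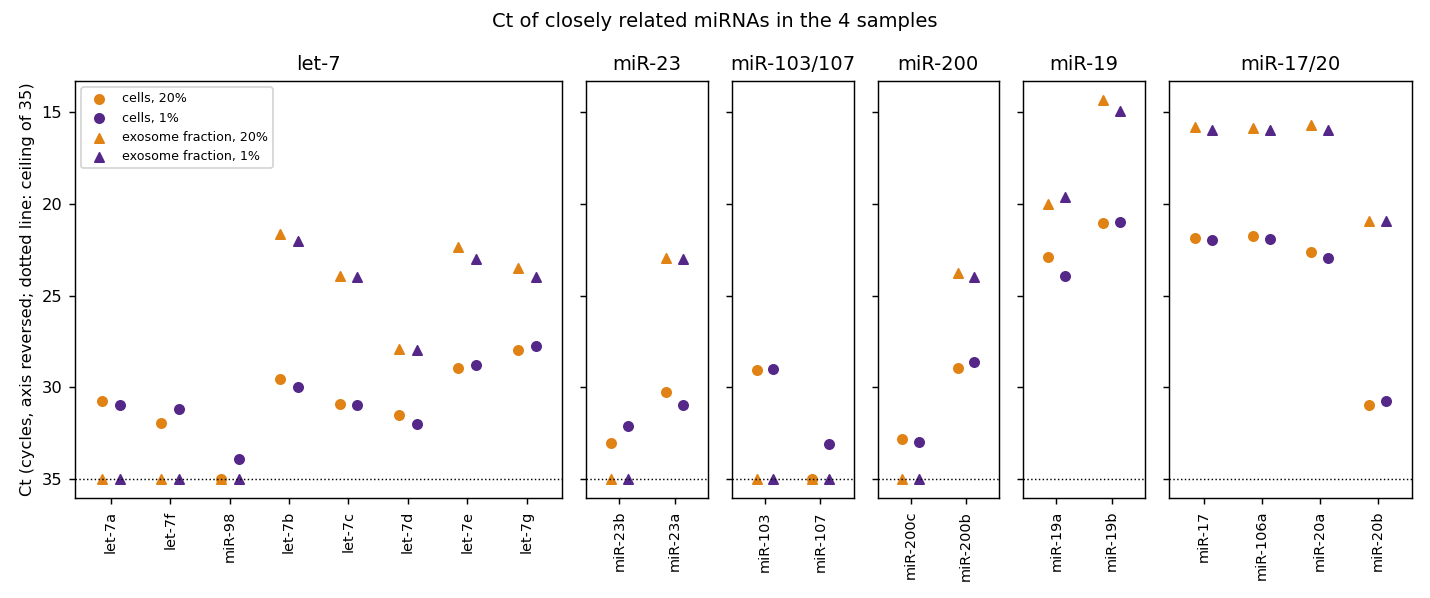
Ct of closely related miRNAs in cells (circles) and exosome fraction (triangles) at 20% oxygen (orange) and 1% oxygen (purple), on a reversed axis so that more template is higher; the dotted line is the ceiling of 35. let-7a, let-7f, miR-98, miR-23b, miR-103 and miR-200c have exosome wells on the ceiling, while let-7b, let-7c, let-7e, miR-23a and miR-200b have exosome wells between 21.65 and 23.98.

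Pairs of miRNAs that differ at 1 base and were both measured mostly had like values. Only part of the card's assays was compared, each with a matched RefSeq sequence. Among those compared, 17 pairs had a single difference over the length of the shorter member. In 8 of the 17 both members were measured. In 5 of these 8 the exosome-over-cell values lay within 2-fold of each other at both oxygen levels. miR-100 and miR-99a parted by -0.11 and 0.09, and miR-27a and miR-27b by 0.19 and -0.08. miR-19a and miR-19b, which differ by U11C (miR-19a's base first), parted by -3.80 and -1.67. In cells the Ct was 22.87 and 23.95 for miR-19a and 21.02 and 20.98 for miR-19b, and in the exosome fraction 19.99 and 19.61 against 14.34 and 14.96.

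The 50 miRNAs seen only in the exosome fraction were mostly near the limit of detection there. Their median Ct was 31.93 at 20% and 31.49 at 1% oxygen, later than the exosome Ct of 28.05 and 28.02 that corresponds to the ceiling in cells after centring. For all but 3 of the 50 the bound lay below equality, so these wells cannot tell whether the compartments differed. The 3 that gave a bound above equality at both levels were miR-22, miR-211 and miR-375. Their bounds likewise take the pre-amplification gain to match that of the median assay, which was not tested. miR-22, a widely expressed tumour-related miRNA, had a Ct of 25.01 and 25.12 in the exosome fraction and was at least 7.46-fold higher there. miR-211, from an intron of the melanocyte gene TRPM1, had a Ct of 26.98 and 26.97 and a bound of 2.06-fold, and miR-375, a miRNA of pancreatic islets, had 27.77 and 27.95 and a bound of 1.04-fold. Next in Ct were miR-518b, miR-219-5p, miR-362-3p, miR-501-3p, miR-545, miR-517a and miR-519a, between 28.46 and 29.98.

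By genomic cluster, the exosome-only miRNAs, 13.3% of the 377 assays on the card, included 7 of the 35 assays for C19MC, the placental cluster on chromosome 19, of which none was measured in all 4 samples and 20 were never seen. They also held 4 of 43 assays for the DLK1-DIO3 locus, of which 1 was measured in all 4 samples and 29 were never seen. Of the 9 assays listed for the CLCN5 intronic cluster, 3 were exosome-only (miR-362-3p, miR-502-5p, miR-502-3p) and 6 were measured; miR-501-3p, from the same cluster but not on the list, was also exosome-only. Of these 6, miR-362-5p was past 4-fold, and miR-500, miR-501-5p, miR-532-5p, miR-532-3p and miR-660 stood between -1.70 and 0.27.

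Few miRNAs had an exosome-over-cell value that differed by much between the oxygen levels. With 1 sample per group, whether oxygen made these differences was not tested. In 2 of 138 assays the values differed by 4-fold or more. miR-210, the miRNA most firmly tied to the hypoxia response, went from Ct 31.00 to 27.44 in cells between 20% and 1% oxygen, and from 23.99 to 23.66 in the exosome fraction. It stood at 0.05 at 20% oxygen and -3.20 at 1%, so that the exosome fraction matched the cells in normoxia and was 9.19-fold lower in hypoxia. The step of over 3 cycles was in the cells, and the exosome wells moved by less than 1 cycle. For miR-194 the Ct was 34.97 and 32.84 in cells, just under the ceiling in normoxia, and 26.82 and 26.98 in the exosome fraction, giving 1.21 and -1.13. The next largest differences were those of miR-193a-3p (-1.62 and -3.56), miR-301b (0.05 and -1.82) and miR-323-3p (-4.75 and -2.91), each with a cell Ct over 32.

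The base composition of the mature miRNAs in the lower group differed from that of the other assays. A RefSeq sequence was matched for 124 of the 138 measured assays (89.9%) and for 21 of the 23 lower ones. The median share of G and C was 37.5% in the lower group, 47.6% in the assays outside both groups and 47.8% in the 4 higher ones. Of 28 assays under 40% G and C, 11 (39.3%) were at least 4-fold lower at both levels and none was higher, with medians of -1.80 and -2.01. From 40% to under 50%, 5 of 45 (11.1%) were lower and 3 higher, with medians of 0.03 and -0.24. At 50% or more, 5 of 51 (9.80%) were lower and 1 was higher, with medians of -0.41 and -0.82. The relation was uneven rather than linear: over the 124 assays the Pearson correlation of composition with the log2 value was 0.25 and 0.23, given as a description. With Ct itself the Pearson correlation of composition was 0.14 and 0.12 in cells and 0.0005 and -0.009 in the exosome fraction. The part of composition in the values was not tested.

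**Figure D5:**
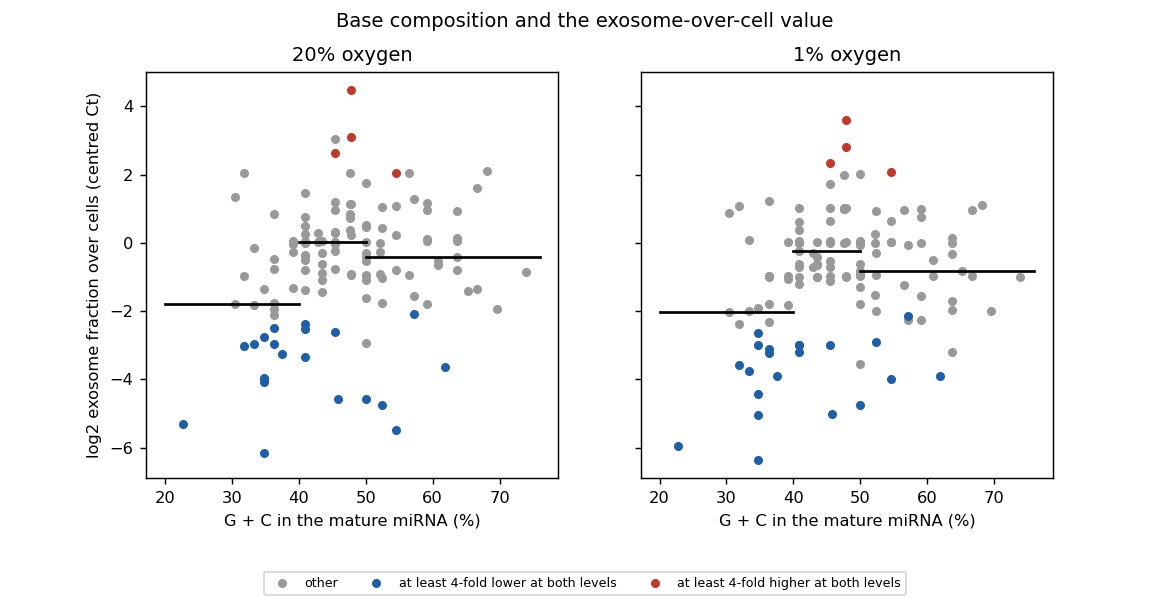
Share of G and C in the mature miRNA (x axis, percent) against the log2 exosome-over-cell value at 20% oxygen (left) and 1% oxygen (right) for the 124 measured assays with a RefSeq sequence; black lines are medians of the bins under 40%, 40% to under 50%, and 50% or more. The bin under 40% has the lowest median at either oxygen level, -1.80 and -2.01.

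Short motifs that have been tied to vesicle export or to cell retention were searched on the miRNA strand only. GGAG was in 5 of the 124 sequences (4.03%, against 7.83% of the 281 matched on the card), with medians of -0.96 and -0.84. CCCU was in 16 (12.9%, 12.8% on the card), with medians of 0.05 and -0.63. AGAAC was in 8 (6.45%, 4.98% on the card), with medians of 0.20 and -0.28. CAGU was in 27 (21.8%, 14.9% on the card), with medians of -0.39 and -0.71, and 1 of the 21 matched lower miRNAs held it. CGGGAG, which contains GGAG, was in none. The last base also varied: it was U in 23 of 41 miRNAs (56.1%) in the highest tercile of the mean value, 7 of 42 (16.7%) in the middle and 14 of 41 (34.1%) in the lowest, while A ended 12.2%, 26.2% and 36.6%. G ended 14.6%, 47.6% and 17.1%, so that U and G parted the middle tercile from both outer ones and showed no steady order.

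Markers of other cell types were looked at for RNA that the labels do not describe. Of 3 liver markers, miR-122, the defining one, was at 35 in all 4 samples, while miR-192 (Ct 34.55 and 33.95 in cells, 26.88 and 26.97 in the exosome fraction) and miR-194 were seen in all 4. Both miR-486 arms, which mark red cells, were at 35 in all 4 samples, and miR-451, also a red cell miRNA, was seen only in the normoxic exosome fraction, at 33.19. Of 6 muscle markers, miR-133a was seen in both exosome samples (27.94 and 28.07) and in hypoxic cells (32.96), and miR-1 in both exosome samples (33.09 and 32.14). Of 5 fibroblast markers, miR-199a-3p alone was measured, at -0.39 and 0.04. Of 7 epithelial markers, 5 were measured, with medians of -0.81 and -0.01. Of 7 nervous system markers, 3 were measured: miR-9, miR-128 and miR-138 (-0.93 and -1.23). miR-124 (Ct 30.01 and 29.51) and miR-219-5p (28.95 and 28.65) were seen only in the exosome fraction, and 2 were never seen. The 4 endothelial markers were all measured, with medians of -0.14 and 0.13. Among them miR-126, also a platelet miRNA, stood at -2.62 and -2.99, miR-132 at -0.02 and 0.01, miR-139-5p at -0.26 and 0.26, and miR-296-5p at 1.60 and 0.97. Of the 5 miRNAs often reported in released vesicles, 4 were measured, with medians of -0.78 and -0.99, near those of all 138 assays; miR-320, with the lowest Ct of them, stood at -0.77 and -0.94.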

How the data were processed

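Human miRNA levels were measured by TaqMan array card in 4 samples, 1 per group. The authors deposited a table of Ct values, not normalized, which are PCR cycles and no other unit; per the labels, a fixed volume of RNA entered reverse transcription and only exosome products were pre-amplified. No source used here says how the ceiling of 35 was set. The authors' table of oxygen ratios was not used.

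Each column was centred on its median Ct over the human assays under 35 in all 4 samples, and the log2 exosome-over-cell value was the difference of centred Ct values within an oxygen level. Differences of 4-fold at both levels were counted. An assay at 35 in a compartment has a bound against 35. No test was made. Calculations used Python 3.11.15, pandas 2.3.3 and numpy 2.4.6, and were tested on 20 simulated data sets. The simulated noise was that of the U6 wells in cells, and the planted shifts were past the threshold. These runs checked the arithmetic and do not measure how reliable the calls are.

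The members and lists were chosen with earlier results of these data known. By rule the text draws its names from the control wells, miR-210 and miR-135b, the 5 lowest Ct per sample, the 10 highest and 10 lowest values past 4-fold, the 5 highest and 5 lowest under Ct 32, the 10 lowest Ct seen in 1 compartment, the 5 largest oxygen differences, the arm pairs, and the leading and past-threshold members of each list. Other miRNAs named were chosen after their values were seen. The card's older assay names were matched by hand to current arm names, and 281 of 377 assays (74.5%) had a RefSeq sequence.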

Additional observations from a re-analysis of the deposited data

Results flagged for a closer look

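miR-194 was the only one of the 138 measured assays whose exosome-over-cell value was past 2-fold in opposite directions at the 2 oxygen levels. It was 1.21 at 20% oxygen and -1.13 at 1% oxygen on the log2 scale, a difference of -2.33. Each value rests on 1 sample per compartment, and the difference between the oxygen levels was not tested. Its Ct in normoxic cells was 34.97, just under the ceiling.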

How the results depend on the processing

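Counts depended on the scale set between the compartments. The centring shifts were smaller than the 4-fold threshold, so no call could turn to the other direction under them. With assays under Ct 32 in all 4 samples (89 assays), 2 were higher and 15 lower at both oxygen levels; 3 were higher and 15 lower at 20% oxygen, and 3 and 21 at 1%. This setting drops assays and keeps the same medians, so its 17 calls are by construction among those made with the limit of 35. Mean centring gave 9 higher at both levels, with 10 higher and 22 lower at 1% oxygen. The median over assays under Ct 32 gave 10 higher and 14 lower at both levels, 14 higher at 20%, and 14 higher and 18 lower at 1%. Setting the median difference to 0, chosen after seeing the data, gave 7 higher at both levels and 8 at 1%. A 2-fold threshold gave 11 higher and 38 lower. Under Ct 32, 28 assays were exosome-only and 3 cell-only. The settings not given here left each count within 1.5 times its value. No paired analysis was possible because each group is 1 sample, and leaving out a sample would end the comparison it belongs to. The cause of the shifts with centring was not tested.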

Other observations

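Some assays seen in an uneven set of samples had low Ct values where they were seen. miR-493 stood at Ct 20.94 in cells at 20% oxygen and at 35 in the other 3 samples. miR-520e had 25.81 and 27.01 in cells, and 35 at 20% and 18.98 at 1% oxygen in the exosome fraction. miR-15a had 30.10 in normoxic cells and 35 in the others. miR-505 and miR-629 were seen in both exosome samples (26.99 and 26.71 for miR-505, 26.97 and 26.97 for miR-629) and in normoxic cells at 33.98 and 34.57. miR-139-3p was seen in the hypoxic exosome fraction only, at 27.94.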
